A study of Mus musculus with 8 samples.

Results

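The interferon response genes are 44 genes that sense viral nucleic acid, carry the interferon signal or are induced by it. They were chosen as the rows whose gene symbol equals one of 44 listed names, and all 44 were found among the 24059 symbols of the deposited table. RNA was sequenced from whole caput epididymis, the first stretch of the tube where sperm mature, in 4 Nell2-knockout (Nell2-KO, genotype Nell2-/-) and 4 wild-type (WT) libraries. All came from C57BL/6N mice aged 14 weeks, given no treatment that the labels record, and the comparison asks how loss of Nell2, which encodes a secreted protein, changes caput transcripts. The labels number the replicates without saying that each is a separate animal, and p-values then reflect only how far these libraries vary, which may be technical. The labels do not describe how the knockout allele was made.

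Interferons are cytokines that cells release when they detect viral RNA or DNA. Type I interferons bind the receptor chains Ifnar1 and Ifnar2, and interferon gamma binds Ifngr1 and Ifngr2. JAK kinases then phosphorylate STAT proteins. Stat2 and Irf9 act in a complex that binds the interferon-stimulated response element (ISRE) in the promoters of antiviral genes, and STAT dimers bind the gamma-activated site (GAS). Several of these genes are also transcribed at a basal level without infection, in epithelium as in blood cells.

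Counts in genes summed to 801112 to 6256204 in the Nell2-KO libraries and 2073811 to 2517387 in the WT libraries. Levels are given as CPM, that is, read counts over a library total that TMM scaling corrects for composition. Nell2 itself had 0 reads in all 8 libraries and so did not check the genotype labels. Gpx5, the abundant glutathione peroxidase of caput epithelium, was at 63071 to 90207 CPM, while the lymphocyte gene Ms4a1 had 0 reads throughout. Nell2-KO replicate 1 had the lowest total, and relative to the total that the authors' RPKM used, its gene counts made up 0.496 times the WT mean. That ratio was 1.02 to 1.03 in the other Nell2-KO libraries and 0.900 to 1.04 in the WT libraries. Calls that end or arise without it are given both ways.

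The interferons and 15 of the 44 members had few or no reads in either genotype. The ligands were at the detection limit: of 9 interferon genes (Ifnb1, Ifng, Ifne, Ifnk, Ifnl2, Ifnl3, Ifna1, Ifna2 and Ifna4), 8 had 0 reads in all libraries and Ifng had 1 read, in Nell2-KO replicate 3. Where no read was seen, up to 3 could have been missed, a limit of 0.211 CPM for the pooled Nell2-KO libraries and 0.339 CPM for the pooled WT libraries (counting error only). The 15 members were too low for the expression filter and were not tested. They were Isg15, which encodes a ubiquitin-like modifier, Oas1a, Oas1b, Oas2, Oas3 and Oasl1 of the oligoadenylate synthetase family, the dynamin-like GTPases Mx1 and Mx2, the helicase gene Dhx58, the tetherin gene Bst2, the chemokine gene Cxcl10, and Ifi27, Ifi44, Ifitm1 and Xaf1. C57BL/6 mice are known to carry defective alleles of Mx1 and Oas1b.

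The pooled level of these 15 genes ran from 0.492 to 4.57 CPM in Nell2-KO and from 0.339 to 3.28 CPM in WT. Isg15 was at 2.82, 2.91, 1.68 and 3.95 CPM in Nell2-KO replicates 1 to 4, against 1.57, 1.47, 1.46 and 3.19 CPM in WT replicates 1 to 4. Cxcl10 was at 4.23, 0.727, 1.37 and 1.44 CPM in Nell2-KO and at 2.35, 1.96, 1.95 and 1.82 CPM in WT. The groups overlapped for both genes, and for all 15. In a single library, 3 reads make 0.457 CPM in the deepest, Nell2-KO replicate 3, and 4.23 CPM in Nell2-KO replicate 1. Summed over the 15, the level was 29.4 to 41.4 CPM in Nell2-KO and 24.6 to 30.2 CPM in WT.

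Levels of different genes were compared per length, by the authors' RPKM. Of the 44 members, 6 had a mean of 10 RPKM or more over all libraries, 27 lay between 1 and 10 RPKM, and 11 were under 1 RPKM. The highest in Nell2-KO was Ifngr2, the signalling chain of the interferon gamma receptor, at 56.2 ± 23.1 RPKM (SD, n = 4), against 52.5 ± 2.0 RPKM in WT (SD, n = 4). Ifitm2 and Ifitm3, small membrane proteins that hinder virus entry, were at 25.1 ± 4.31 and 31.7 ± 16.2 RPKM in Nell2-KO, against 72.1 ± 19.6 and 53.7 ± 9.93 RPKM in WT. Ifngr1, the ligand-binding chain, was at 17.8 ± 7.02 RPKM in Nell2-KO and 25.0 ± 3.95 RPKM in WT. Without Nell2-KO replicate 1 (n = 3), a choice made after seeing the data, the Nell2-KO means were 67.5 ± 5.05 RPKM for Ifngr2, 23.6 ± 3.59 RPKM for Ifitm2, 39.6 ± 4.88 RPKM for Ifitm3 and 21.2 ± 2.21 RPKM for Ifngr1 (SD). In WT, Ifitm2, Ifitm3 and Ifngr2 did not differ beyond their spread, nor did Irf9 (11.8 ± 2.57 RPKM) and Irgm1 (11.5 ± 1.07 RPKM). Transcripts of interferon gamma receptors and IFITM proteins led the list in WT, and Oas3 stood at its end (0.0781 ± 0.0550 RPKM in Nell2-KO and 0.0453 ± 0.0306 RPKM in WT).

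**Figure D1:**
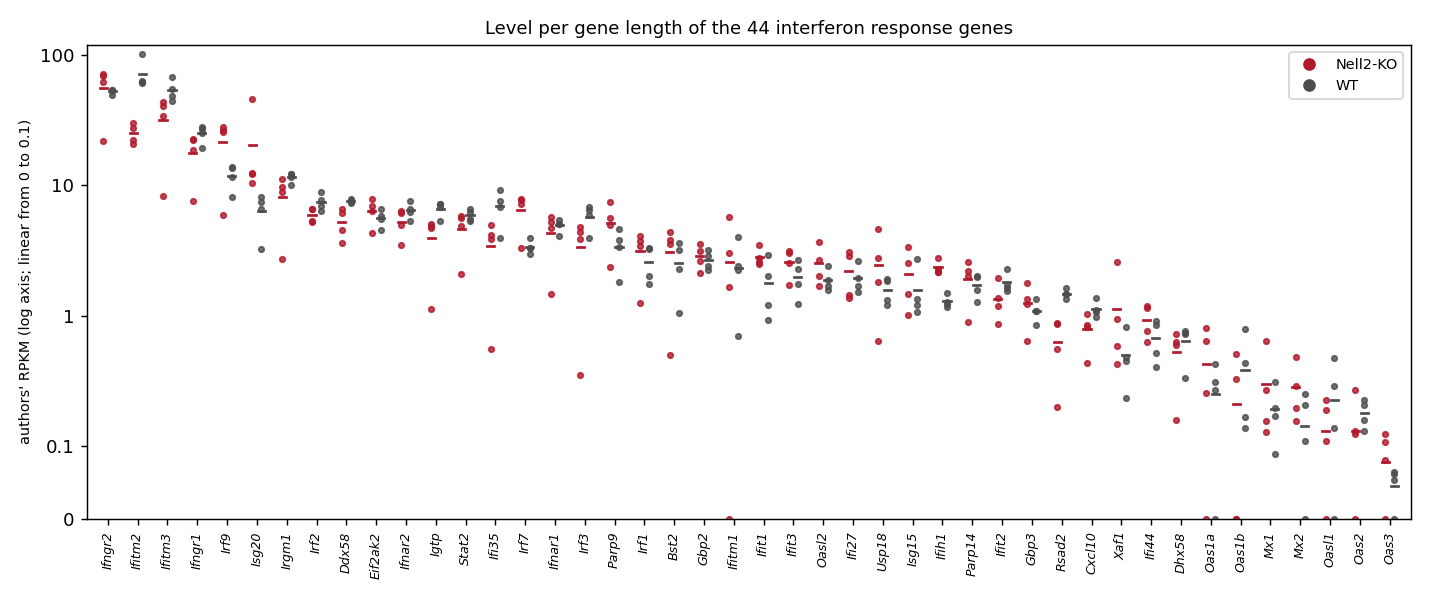
Authors' RPKM (vertical axis, logarithmic above 0.1 and linear below) of the 44 interferon response genes, ordered by the mean over all libraries. Points are libraries (4 Nell2-KO, red, left of 4 WT, grey) and short lines are group means; Ifngr2, Ifitm2, Ifitm3 and Ifngr1 lie at the upper end, and Mx1, Mx2, Oasl1, Oas2 and Oas3 at the lower end. The lowest red point of Ifngr2, at 22.0 RPKM, is Nell2-KO replicate 1.

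Of the 29 members tested, 4 rose and 2 fell in Nell2-KO, and 23 did not pass the test (edgeR's quasi-likelihood test, Benjamini-Hochberg adjusted p under 0.05 over 11062 genes). The 6 are 20.7% of the members tested, against 15.0% of all genes tested. In the direction of higher levels the background was 6.24% and in that of lower levels 8.71%. The median log2 fold change of the 29 was 0.16, against 0.03 over all genes tested, and 15 members were above 0 and 14 below. The genes that rose were Irf7, Irf9, Isg20 and Ifih1, and those that fell were Rsad2 and Ifitm2. Without TMM scaling, limma on the authors' RPKM called 69 genes higher and 533 lower of 12562, and 0 members higher and 1 lower, which was Ifitm2.

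Irf7, the transcription factor that drives expression of type I interferon genes in infected cells, gave the most even difference. It was at 22.5, 20.3, 22.1 and 21.9 CPM in Nell2-KO replicates 1 to 4, against 8.61, 11.3, 11.7 and 9.58 CPM in WT replicates 1 to 4. Each Nell2-KO library was above each WT library, and neither group held a library far from the rest. The rise was 1.09 ± 0.18 on the log2 scale (SE), or 2.12-fold (edgeR adjusted p = 0.00129). The call held in each of the 8 fits that leave out a library, with log2 fold changes of 1.01 to 1.16. Irf7 (ENSMUSG00000025498.15) maps to the minus strand of mm10 chromosome 7, bases 141262706 to 141266481, and Phrf1 overlaps it on the opposite strand. Phrf1 was at 68.2 ± 11.9 CPM in Nell2-KO and 48.6 ± 4.26 CPM in WT (log2 fold change 0.52, edgeR adjusted p = 0.0422). The library kit marks strand, but the strand setting of the counting was not given in the sources used here, and reads of this pair may not be told apart.

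Irf9, the DNA-binding subunit of the complex with Stat2, was at 59.2, 108, 103 and 115 CPM in Nell2-KO and at 48.2, 40.2, 58.4 and 56.6 CPM in WT. Nell2-KO replicate 1 lay just above the highest WT library, and the other Nell2-KO libraries well above it. The rise was 0.96 ± 0.20 on the log2 scale (SE), or 1.94-fold (edgeR adjusted p = 0.00698). With Nell2-KO replicate 1 left out it was 1.11 ± 0.13 (SE) at an edgeR adjusted p of 6.38e-06, and the call held in all 8 fits that leave out a library. Irf9 (ENSMUSG00000002325.15) maps to the plus strand of chromosome 14, bases 55603571 to 55610030, and overlaps Rnf31 on the same strand in the annotation. Rnf31 was at 9.08 ± 2.34 CPM in Nell2-KO and 8.55 ± 3.32 CPM in WT (edgeR adjusted p = 0.77).

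Stat2, the partner of Irf9, was not called. It was at 33.8, 32.7, 38.5 and 37.7 CPM in Nell2-KO and at 44.6, 43.1, 43.8 and 37.9 CPM in WT, a log2 fold change of -0.22 ± 0.14 (SE) at an edgeR adjusted p of 0.348. The other transcription factors of the list were Irf1, Irf2 and Irf3, none of which was called. Irf1, a STAT-induced activator, had a log2 fold change of 0.44 ± 0.21 (SE), and Irf3, which acts downstream of the sensors, one of -0.65 ± 0.29 (SE). Irf2, which competes with Irf1 for its sites, was at 47.9, 24.7, 24.7 and 20.5 CPM in Nell2-KO and at 24.3, 40.6, 30.2 and 26.9 CPM in WT. Its groups overlapped, with Nell2-KO replicate 1 and WT replicate 2 above the rest of their groups.

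Isg20, which encodes a 3' to 5' exonuclease of RNA, had the largest fitted rise of the 29 members tested. It was at 70.4, 24.7, 29.3 and 112 CPM in Nell2-KO and at 19.97, 9.30, 16.5 and 18.2 CPM in WT. The groups did not overlap, but Nell2-KO replicates 1 and 4 were far above replicates 2 and 3. The rise was 1.89 ± 0.46 on the log2 scale (SE), or 3.70-fold (edgeR adjusted p = 0.0146). The call ended without Nell2-KO replicate 1 (edgeR adjusted p = 0.118), without Nell2-KO replicate 4 (log2 fold change 1.21, edgeR adjusted p = 0.0536) and without WT replicate 2 (edgeR adjusted p = 0.057). The same Nell2-KO libraries, 1 and 4, also held the most germ cell transcripts: 7 markers summed to 67.6, 40.0, 35.8 and 103 CPM in Nell2-KO replicates 1 to 4 and to 61.1, 46.0, 37.9 and 31.5 CPM in WT replicates 1 to 4. None of the 3 germ cell markers tested was called, none of the 7 was at 0 throughout, and their part in the Isg20 result was not tested.

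Of the tested sensors of viral RNA, 1 rose and 1 was not called. Ifih1, which encodes MDA5, a sensor of long double-stranded RNA, was at 46.5, 23.2, 18.1 and 18.5 CPM in Nell2-KO and at 10.6, 15.2, 10.2 and 10.9 CPM in WT. All Nell2-KO libraries were above all WT libraries, and Nell2-KO replicate 1 was well above its group. The rise was 0.99 ± 0.30 on the log2 scale (SE), or 1.98-fold (edgeR adjusted p = 0.0456). Without Nell2-KO replicate 1 it was 0.73 ± 0.19 (SE) at an edgeR adjusted p of 0.00996, and the call ended without any 1 WT library or without Nell2-KO replicate 2 (the highest edgeR adjusted p was 0.12, with WT replicate 3 left out). Ddx58, which encodes RIG-I, the sensor of RNA with a 5' triphosphate, had 49.0 ± 13.5 CPM in Nell2-KO and 61.0 ± 6.88 CPM in WT (SD, n = 4 each). Its log2 fold change was -0.37 ± 0.20 (SE) at an edgeR adjusted p of 0.257, and without Nell2-KO replicate 1 it was -0.49 ± 0.15 (SE) at an edgeR adjusted p of 0.0242.

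Among the effectors, Rsad2, which encodes the antiviral enzyme viperin, fell. It was at 2.82, 5.09, 3.20 and 5.03 CPM in Nell2-KO, from 58 reads in all, and at 8.61, 9.30, 8.76 and 9.58 CPM in WT, from 80 reads. The groups did not overlap, and the WT libraries lay close together. The fall was -1.13 ± 0.25 on the log2 scale (SE), or 2.18-fold (edgeR adjusted p = 0.00909), and the call ended only without Nell2-KO replicate 3 (edgeR adjusted p = 0.0633). Of the IFIT genes, whose proteins bind viral RNA, none was called with all 8 libraries: the log2 fold change was 0.70 ± 0.41 for Ifit1, -0.41 ± 0.26 for Ifit2 and 0.47 ± 0.28 for Ifit3 (SE). Ifit1 was called higher without both Nell2-KO replicate 1 and WT replicate 2 (log2 fold change 0.87, edgeR adjusted p = 0.024). The IFIT genes of the list lie on chromosome 19, between 34550694 and 34650009.

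Ifitm2 also fell, but its groups overlapped. It was at 69.0, 26.2, 19.7 and 21.4 CPM in Nell2-KO and at 61.5, 116, 60.8 and 60.7 CPM in WT. Nell2-KO replicate 1 was at the WT level, and WT replicate 2 was far above the other WT libraries. The fall was -1.36 ± 0.37 on the log2 scale (SE), or 2.56-fold (edgeR adjusted p = 0.0284). Without Nell2-KO replicate 1 it was -1.77 ± 0.25 (SE) at an edgeR adjusted p of 0.000351, and the call ended without any 1 of the other 7 libraries (the highest edgeR adjusted p was 0.112, with Nell2-KO replicate 3 left out). Ifitm3 was at 19.7, 33.4, 39.8 and 43.5 CPM in Nell2-KO and at 67.4, 52.4, 55.9 and 49.3 CPM in WT, without overlap, a log2 fold change of -0.63 ± 0.20 (SE) at an edgeR adjusted p of 0.0545. It was called lower without Nell2-KO replicate 1 (edgeR adjusted p = 0.0162) or 4 (edgeR adjusted p = 0.0462). The IFITM genes are near copies of each other within one cluster on chromosome 7, and 36-base reads that fit several of them leave their single counts uncertain, since how such reads were counted was not stated.

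Summed markers were lower in each Nell2-KO library than in each WT library for 5 of 9 cell type lists: endothelium, macrophages and dendritic cells, smooth muscle, fibroblasts and basal cells. Of all genes tested, taken singly, 12.6% were lower without overlap. Of 8 endothelial markers tested, Pecam1, Kdr and Emcn fell and 0 rose, where 8.71% of all genes tested fell. In log2 fold change, 7 of the 8 were below 0 and 1 was above. The 8 summed to 62.5 to 77.5 CPM in Nell2-KO (62.5 to 73.4 CPM without replicate 1) against 110 to 149 CPM in WT. Of 10 macrophage and dendritic cell markers tested, Lyz2 fell and 0 rose, a share near that of all genes. All 10 were below 0 in log2 fold change. The 13 in the list summed to 125 to 182 CPM in Nell2-KO (131 to 182 CPM without replicate 1) against 184 to 232 CPM in WT. Smooth muscle markers summed to 642 to 836 CPM in Nell2-KO and 1513 to 1799 CPM in WT. Only Actg2 of the 6 was called (24.4 ± 5.61 CPM in Nell2-KO, 1019 ± 133 CPM in WT), and 4 were above 0 in log2 fold change. Fibroblast markers summed to 665 to 1007 CPM in Nell2-KO and 1011 to 1079 CPM in WT. Of these 6, 4 were above 0, and Dcn rose (401 ± 79.3 CPM in Nell2-KO, 275 ± 22.8 CPM in WT). Pdgfra fell (121 ± 23.7 CPM in Nell2-KO, 517 ± 42.7 CPM in WT). Basal cell markers summed to 127 to 217 CPM in Nell2-KO and 220 to 259 CPM in WT. Only Trp63 of them was called (109 ± 13.0 CPM in Nell2-KO, 173 ± 22.5 CPM in WT). The lower sums of these lists thus mainly followed Actg2, Pdgfra and Trp63. The 11 lymphocyte markers summed to 2.51 to 4.23 CPM in Nell2-KO and 1.46 to 3.43 CPM in WT. In whole tissue, fewer cells of a type and less RNA per cell cannot be told apart, and the part of these cells in the IFITM results was not tested.

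**Figure D2:**
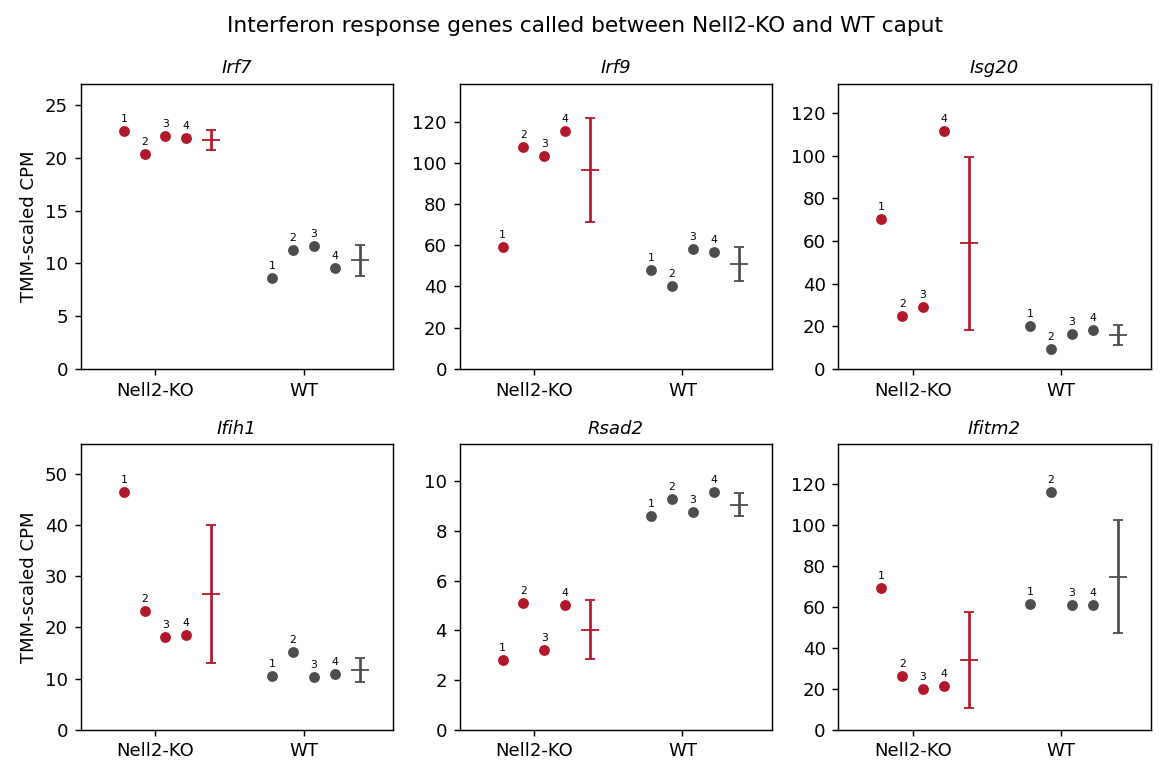
TMM-scaled CPM (vertical axes, from 0) of the 6 members called between 4 Nell2-KO (red, left) and 4 WT (grey, right) libraries; numbers are replicates, and the bars to the right of each group give mean ± SD. The groups are apart for all but Ifitm2, where Nell2-KO replicate 1 reached 69.0 CPM; Nell2-KO replicate 1 also stands above its group in Ifih1 and, with replicate 4, in Isg20.

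No receptor was called with all 8 libraries. Ifngr2 was at 168, 194, 224 and 218 CPM in Nell2-KO and at 169, 188, 175 and 174 CPM in WT, which overlapped, with a log2 fold change of 0.20 ± 0.13 (SE) at an edgeR adjusted p of 0.388. Leaving out Nell2-KO replicate 1 gave 0.28 ± 0.10 (SE) at an edgeR adjusted p of 0.0419. Ifngr1 was at 59.2, 71.9, 59.0 and 71.8 CPM in Nell2-KO and at 91.6, 74.4, 90.5 and 82.1 CPM in WT, without overlap, with a log2 fold change of -0.36 ± 0.14 (SE) at an edgeR adjusted p of 0.118. It was called lower without both Nell2-KO replicate 1 and WT replicate 2 (edgeR adjusted p = 0.0064). Ifnar1 and Ifnar2 had log2 fold changes of -0.10 ± 0.16 and -0.12 ± 0.19 (SE). Ifnar2, Il10rb, Ifnar1 and Ifngr2 form a run on chromosome 16 between 91372783 and 91565623. Il10rb, the chain shared by the receptors for interleukin 10 and interferon lambda, is no member of the list and fell 2.82-fold, to 42.3, 26.9, 30.5 and 30.7 CPM in Nell2-KO, against 77.9, 108, 81.2 and 90.3 CPM in WT (edgeR adjusted p = 7.77e-05).

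The interferon-inducible GTPases of the IRG family, Igtp and Irgm1, act on vacuoles that hold intracellular pathogens and did not pass the test. Igtp was at 8.45, 14.5, 14.9 and 15.8 CPM in Nell2-KO and at 22.7, 19.6, 22.9 and 21.4 CPM in WT, without overlap, with a log2 fold change of -0.59 ± 0.18 (SE) at an edgeR adjusted p of 0.0535. It was called lower when Nell2-KO replicate 1 was left out (edgeR adjusted p = 0.03). Irgm1 was at 22.5, 37.8, 30.0 and 33.2 CPM in Nell2-KO and at 42.3, 40.6, 40.9 and 42.4 CPM in WT, without overlap, with a log2 fold change of -0.40 ± 0.16 (SE) at an edgeR adjusted p of 0.127, and was called lower without both Nell2-KO replicate 1 and WT replicate 2 (edgeR adjusted p = 0.0487). Irgm2, a gene of the same family outside the list and named after its values were seen, fell to 18.3 ± 5.90 CPM in Nell2-KO, against 31.6 ± 0.679 CPM in WT (SD, n = 4 each; edgeR adjusted p = 0.0267). Its call ended without WT replicate 1. Irgm2 overlaps Igtp on the same strand in the annotation, and their reads may not be fully separate. The guanylate-binding protein genes Gbp2 and Gbp3 had log2 fold changes of 0.16 ± 0.30 and 0.25 ± 0.26 (SE).

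Parp9, an ADP-ribosyltransferase partner of the ubiquitin ligase Dtx3l, was at 31.0, 40.0, 30.3 and 27.3 CPM in Nell2-KO and at 21.1, 11.8, 18.97 and 25.5 CPM in WT, without overlap. Its log2 fold change was 0.70 ± 0.23 (SE) at an edgeR adjusted p of 0.06, and it was called higher without Nell2-KO replicate 1 (edgeR adjusted p = 0.0217) or WT replicate 4 (edgeR adjusted p = 0.0442). Dtx3l, which overlaps it on the opposite strand, had a log2 fold change of 0.73 (edgeR adjusted p = 0.0662). The other members that were tested had smaller or less even differences. They were Oasl2, Eif2ak2, which encodes the RNA-activated kinase PKR, Usp18, the protease that removes Isg15, Parp14 and Ifi35. Ifi35 had the lowest log2 fold change of these, -0.81 ± 0.28 (SE) at an edgeR adjusted p of 0.0761, and was called lower without Nell2-KO replicate 1 or WT replicate 2.

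**Figure D3:**
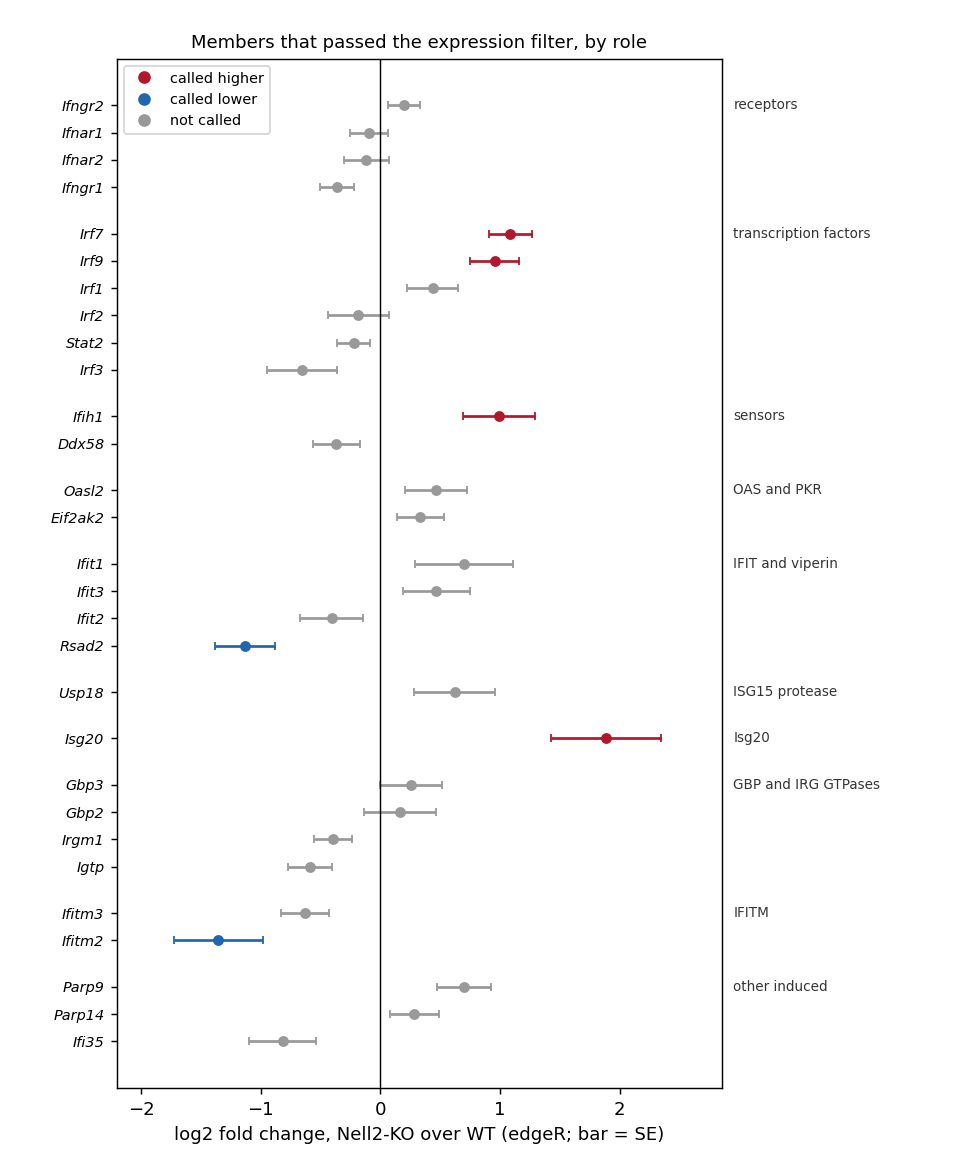
Log2 fold change of Nell2-KO over WT (horizontal axis; points are edgeR estimates, bars SE) for the 29 members tested, in rows grouped by role. Red marks the 4 members called higher, blue the 2 called lower and grey the 23 not called; both signs occur among the transcription factors, the sensors and the IFIT genes.

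In 10 of the 29 members tested (34.5%) the CPM of the groups did not overlap, with Nell2-KO above WT in 5 and below it in 5, against 22.1% of all genes tested (9.49% higher and 12.6% lower). Without Nell2-KO replicate 1, 5 members were called higher and 6 lower of 29, against a background of 11.5% higher and 13.2% lower. Parp9 and Ifngr2 were then called higher and Isg20 no longer was, and Ddx58, Ifi35, Ifitm3 and Igtp were called lower beside Rsad2 and Ifitm2. The median over the members was -0.0012 in that fit. Without Nell2-KO replicate 1 and WT replicate 2, 6 members were called higher and 8 lower of 31, against 12.2% and 14.9% of all genes tested. Irf7, Irf9 and Ifih1 were called higher and Rsad2 and Ifitm2 lower in these 2 fits, as with all libraries.

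**Figure D4:**
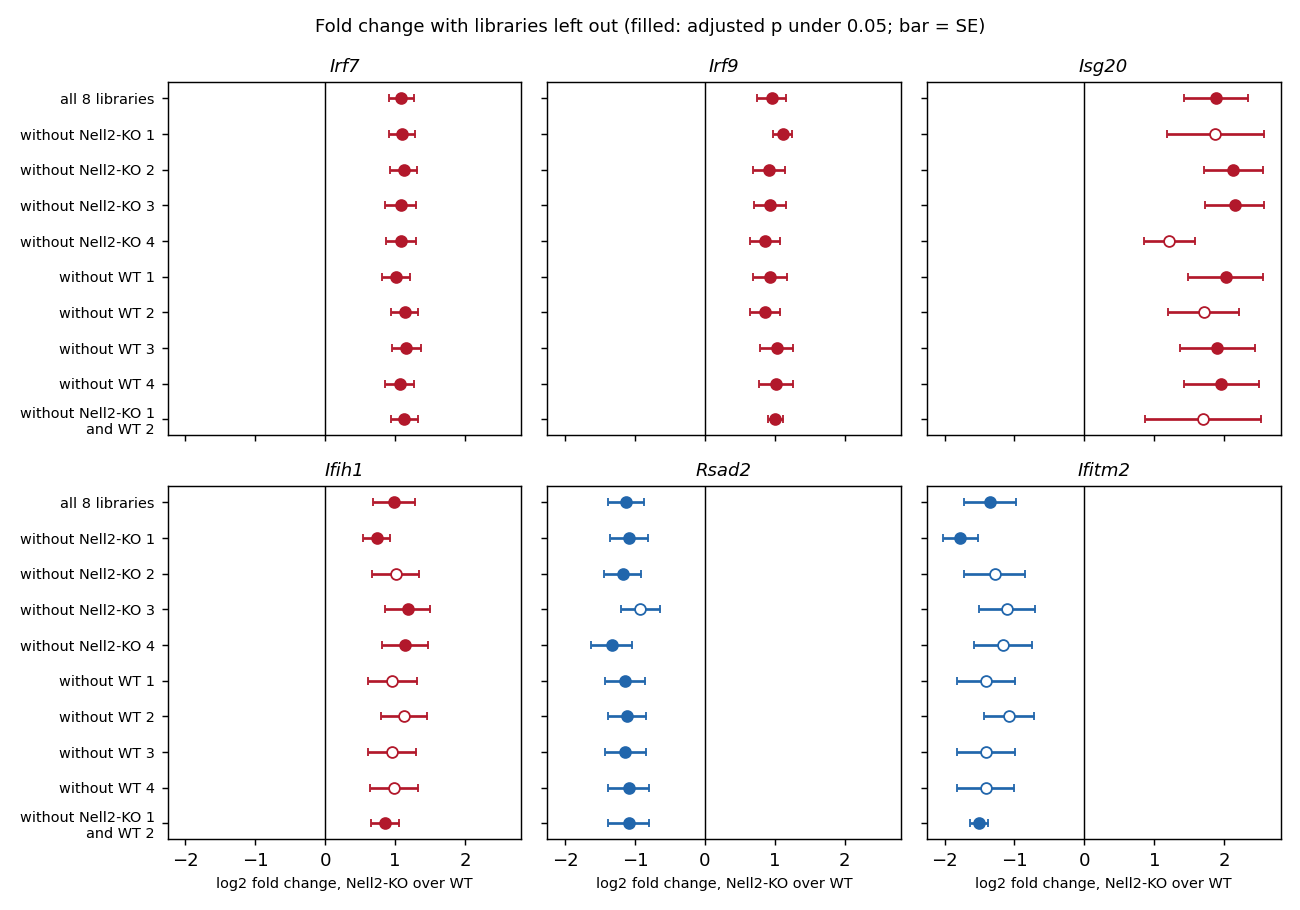
Log2 fold change (horizontal axis, bars SE) of the 6 called members with all 8 libraries, with each library left out, and with Nell2-KO replicate 1 and WT replicate 2 both left out (rows). Filled points have an edgeR adjusted p under 0.05; Irf7 and Irf9 are filled in every row, whereas Ifitm2 is filled in 3.

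The promoters of the members were read to show which of them hold the letters that interferon-activated factors bind. RefSeq windows from 250 bases before to 50 bases after a start, on GRCm38.p6 (mm10), matched 35 of the 44 members by symbol. The ISRE letters, searched as GAAA, any 2 bases and GAAA again on either strand, overlapping matches included, were found for 19 of these 35 genes (54.3%), against 3.99% of the 27025 genes with a window. The GAS letters, TTCNNNGAA, which read the same on both strands, were found for 12 of 35 (34.3%), against 9.55%. Among the called members the ISRE letters were in the windows of Ifih1, which rose, and of Rsad2 and Ifitm2, which fell. The GAS letters were in that of Isg20, and neither was in the windows of Irf7 and Irf9. Among members with a window, 11 of the 20 tested but not called held the ISRE letters, as did 5 of the 9 not tested. Genes with these letters thus stood among the higher, the lower and the not called members.

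Stretches of 100 bases that lie before the start and hold a match are shown for called members with one there, for both IRG genes, and for Ifit1 and Isg15, which hold several matches and, with all libraries, were not called or not tested. All are given 5' to 3' on the strand of the gene. Capitals mark the ISRE letters, or in Isg20 the GAS letters, and a GAS match of Igtp just before its ISRE match is left in lower case. Those of Rsad2 and Ifit1 are on the opposite strand and so read as the reverse complement.
Rsad2, chr12:26456518-26456617, minus strand: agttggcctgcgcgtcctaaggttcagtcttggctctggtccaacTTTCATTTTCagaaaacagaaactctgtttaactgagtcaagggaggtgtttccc
Ifitm2, chr7:140955962-140956061, minus strand: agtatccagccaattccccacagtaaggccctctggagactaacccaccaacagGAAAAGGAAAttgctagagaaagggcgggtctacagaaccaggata
Isg20 (GAS letters), chr7:78913305-78913404, plus strand: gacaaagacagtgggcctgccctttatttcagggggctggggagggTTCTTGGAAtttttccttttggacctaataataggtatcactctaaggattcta
Igtp, chr11:58199456-58199555, plus strand: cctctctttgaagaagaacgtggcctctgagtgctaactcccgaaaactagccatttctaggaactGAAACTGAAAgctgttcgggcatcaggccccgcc
Irgm1, chr11:48871421-48871520, minus strand: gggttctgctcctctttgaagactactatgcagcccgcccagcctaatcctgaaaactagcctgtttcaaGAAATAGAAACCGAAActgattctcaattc
Ifit1, chr19:34640749-34640848, plus strand: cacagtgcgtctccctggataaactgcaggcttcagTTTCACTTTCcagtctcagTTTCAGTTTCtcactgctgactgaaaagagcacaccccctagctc
Isg15, chr4:156200836-156200935, minus strand: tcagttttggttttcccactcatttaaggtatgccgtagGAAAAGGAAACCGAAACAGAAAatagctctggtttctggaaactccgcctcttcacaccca

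The capitals begin 120 bases before the start in Rsad2, 46 in Ifitm2, 73 in Isg20, 34 in Igtp, 30 in Irgm1, 104 in Ifit1 and 78 in Isg15. Irgm1 holds 2 overlapping matches, Isg15 3 overlapping ones and Ifit1 2 separate ones. The match of Ifih1 lies after the start and is not shown. A match of letters is a description of the sequence and does not show that a factor bound there in the caput.

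The rest of the pathway was read from a list of 80 further genes, of which 49 passed the filter. Of these 3 rose and 4 fell (14.3%, against the 15.0% of all genes tested), with a median log2 fold change of 0.06. Pias1, an inhibitor of STAT signalling, rose 1.52-fold (140.7 ± 22.9 CPM in Nell2-KO and 92.1 ± 3.05 CPM in WT, edgeR adjusted p = 0.0121). The signalling kinases were not called: Jak1 had a log2 fold change of -0.41 ± 0.15, Jak2 one of 0.11 ± 0.17 and Tyk2 one of 0.03 ± 0.20 (SE).

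Beside Il10rb and Irgm2, the genes of this list that fell were Apobec3 and Tmem173. Apobec3, a cytidine deaminase that restricts retroviruses, was at 31.0, 36.3, 13.6 and 8.98 CPM in Nell2-KO and at 81.1, 81.8, 80.7 and 74.4 CPM in WT. The groups were far apart, with the WT libraries close together and the Nell2-KO libraries spread. The fall was -2.07 ± 0.35 on the log2 scale (SE), or 4.21-fold (edgeR adjusted p = 0.00168). Apobec3 lies on chromosome 15 at 79891659 to 79915906, the chromosome that also carries Nell2 (95075230 to 95528559). Both lie within a span of 15.6 Mb, and an effect of the shared chromosome was not tested. D730005E14Rik overlaps Apobec3 on the same strand in the annotation, and their reads may not be fully separate. It also fell, to 1.65 ± 1.85 CPM in Nell2-KO, against 8.72 ± 1.86 CPM in WT (edgeR adjusted p = 0.0032). Cbx7, which overlaps Apobec3 on the opposite strand, was not called (edgeR adjusted p = 0.471). Tmem173, which encodes the DNA-pathway adaptor STING, was at 2.82, 8.72, 8.38 and 6.65 CPM in Nell2-KO and at 19.6, 11.8, 15.6 and 16.4 CPM in WT, without overlap (2.18-fold lower, edgeR adjusted p = 0.0103). The calls of Il10rb, Apobec3, Tmem173 and Pias1 held in all 8 fits that leave out a library.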

How the data were processed

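Per the file headers, the authors gave read counts and RPKM for each gene symbol in each library. The reads were single, of 36 bases, from amplified RNA and a strand-marking kit, per the labels' protocols. The submitters' processing notes list Bowtie2 2.2.0, CASAVA 1.8.2, FastQC 0.11.2 and mm10. How reads were assigned to genes, with which strand setting, was not stated. The deposited RPKM served to compare levels between genes and in an alternative test.

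Genotype was tested on the counts of the whole table in edgeR 4.0.16 (R 4.3.3), by a robust quasi-likelihood F test with TMM scaling, the default expression filter and no covariate, with Benjamini-Hochberg adjustment over the genes tested. The procedure was tested on simulated data. The SE is the log2 fold change over the square root of F, and SD are over n = 4 libraries. Library totals of 801112 to 6256204 put 3 reads at 0.457 to 4.23 CPM. Alternatives used DESeq2 1.42.0, limma 3.58.1, other scaling and filters, a replicate block, and libraries left out. WT replicates 3 and 4 differed least (chi-square per degree of freedom 1.27, other pairs 1.96 to 16.1) and were kept as separate samples.

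The members and lists were chosen with earlier results of these data known. The genes described in detail are called members, members of at least 5 CPM whose groups do not overlap, the 8 members highest in RPKM, and up to 6 called genes of the rest of the pathway. Isg15, Cxcl10, Stat2 and Irgm2 fall outside that rule: they were picked with their values known. Values of some called genes of the rest of the pathway are not reported here. Positions came from GENCODE M21 and promoters from RefSeq (GRCm38.p6), both on mm10.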

Additional observations from a re-analysis of the deposited data

Results flagged for a closer look

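In each group of 4 libraries, the library farthest from the others was compared with the range of its group for the 29 members tested. This gave 5 of 58 groups past the 95% limit of Dixon's test, where chance flags about 1 in 20 groups, or 2.9 here. In Nell2-KO, replicate 1 stood above the other 3 libraries for Ifitm2 (69.0 CPM, against 19.7 to 26.2 CPM) and for Irf2 (47.9 CPM, against 20.5 to 24.7 CPM). In WT, replicate 2 stood above the other 3 for Ifitm2 (116 CPM, against 60.7 to 61.5 CPM), for Ifih1 (15.2 CPM, against 10.2 to 10.9 CPM) and for Ifit2 (16.6 CPM, against 9.73 to 10.6 CPM). Nell2-KO replicate 1 was the highest of its group for 12 of the 29 members and the lowest for 11, and WT replicate 2 the highest for 12 and the lowest for 8.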

How the results depend on the processing

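With RLE scaling, a filter of 1 CPM in 4 libraries or the replicate block, the 6 members called were those of the fit with all libraries. Over the fits that leave out a library, 2 to 5 members were called higher and 0 to 6 lower. In these fits 3 to 5 other pathway genes were called higher and 3 to 7 lower. The number of all genes called varied too, from 1204 of 11281 without WT replicate 3 to 2786 of 11279 without Nell2-KO replicate 1. The members' median log2 fold change was -0.0012 to 0.26. Without a filter, 1 member was called lower, Rsad2, and Isg20 and Ifitm2 were no longer called. DESeq2 added Parp9 and Ifitm3. Limma-voom with sample weights called 7 members higher and 8 lower, and 6 other pathway genes higher and 10 lower, with a median of -0.10, among 3459 genes called in all, against 1654. Limma on the authors' RPKM, with a pseudocount of 1, with 0.1 or without a filter, called 0 members higher and 1 lower, and 0 other pathway genes higher and 2 lower, among 602, 490 and 598 genes in all. That fit has no TMM scaling, and with a pseudocount of 1 it moved the median of all genes by -0.17. Ifngr2 had log2 fold changes of -0.038, -0.042 and -0.038 in these 3 fits, and of 0.10 relative to the median of all genes with a pseudocount of 1. Without both Nell2-KO replicate 1 and WT replicate 2, 8 members were called lower, and 7 other pathway genes higher and 7 lower. The cause of these changes was not tested. Of the named genes' fold changes, 130 of 152 with a library left out and 141 of 190 under other settings kept their direction and side of the threshold, and the 3 that reversed were those of Ifngr2. These counts include genes that were called in neither fit. Over the 8 fits that leave out a library, the call held in 8 for Irf7 and for Irf9. It held in 7 for Rsad2, 5 for Isg20, 3 for Ifih1 and 1 for Ifitm2.

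The labels do not say that the replicate numbers pair the libraries. Deviations from the group mean correlated at -0.27, -0.15, 0.16 and 0.15 between same-numbered libraries. In 0 of 4 Nell2-KO libraries was the WT library of the same number the best correlated. These correlations showed no pairing by number but cannot exclude one, since single outlying libraries weigh on them. With the replicate block, 4 members were called higher and 2 lower, 2 other pathway genes were called lower, and 436 genes in all were called higher and 748 lower, against 690 and 964. The block ended the calls of Tmem173 (edgeR adjusted p = 0.0536) and Irgm2. Depth limits the members under about 5 CPM, which in Nell2-KO replicate 1 rest on very few reads.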
